A study of Solanum lycopersicum with 12 samples.

Results

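Heat stress transcription factors and small heat shock proteins were described in the pericarp, the fleshy wall of the tomato fruit (Solanum lycopersicum), from RNA sequencing of wild-type and cr mutant fruit at 2 stages of ripening. The genes were taken from the annotation in the deposited count table. A gene entered where its transcription factor family was HSF, or where its description named a heat stress transcription factor, a small heat shock protein, HSP20, a class I or II protein given in kDa, or a heat shock protein given in kDa other than 70 or 90 kDa. Of 35882 annotated features 74 met these words, and 52 of the 74 had at least 10 counts in 3 or more libraries. The 4 groups held 3 libraries each: wild-type (A) at mature green, wild-type (A) at breaker, mutant (cr) at mature green and mutant (cr) at breaker. The labels put the numbers 35 and 38 beside the mature green and breaker stages without a unit. They name neither the gene nor the allele that cr carries, nor the cultivar behind "A". Nothing in them says that libraries of a group are from different plants. The p-values therefore speak only of the scatter among the libraries at hand, part of which may be technical.

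Heat stress factors are DNA-binding proteins that assemble on heat stress elements in promoters. Class A factors carry activator motifs, whereas class B factors lack them and act as repressors or as coactivators. Small heat shock proteins are ATP-independent chaperones built around an alpha-crystallin domain that hold unfolding proteins until HSP70, HSP90 and HSP100 machines refold them. Plants sort them by sequence and compartment: classes I and II in the cytosol, others in chloroplasts, mitochondria, peroxisomes and the endoplasmic reticulum. In tomato fruit the chloroplast protein HSP21 is known to accumulate at colour change as well as after heat, and mature green and breaker fall on either side of that change.

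Of the 52 genes, 19 were heat stress factors, 6 were placed in organelles by their descriptions, 8 were class I, 2 were class II and 17 were others. The alpha-crystallin domain was annotated in 24 of the 33 that were not heat stress factors. The wording of the descriptions also drew in genes of other kinds, and 9 of the 33 had no such domain listed. Among them, Solyc03g007890 is described as a class 2 small heat shock protein, but its protein hit is heat shock protein 83, a member of the HSP90 family. Solyc08g078700 is described as mitochondrial, but its hit is a vesicle-associated protein. Solyc09g075010, Solyc12g056780 and Solyc10g081360 carry the CS domain of p23 co-chaperones, and the remaining 4 had no domain listed at all. A further 4 genes, which do carry the alpha-crystallin domain, were described as Restricted TEV Movement 2, a phloem protein that limits spread of a virus in Arabidopsis. The 22 genes below the minimum included 10 heat stress factors and 8 genes with no count in any library. The threshold fell between Solyc11g071560, kept with 3 libraries at the minimum, all of them cr, and 103 counts in all, and Solyc04g072250, left out with 2 such libraries and 85 counts.

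Libraries held 17703054 to 19426192 counts each, and the 52 genes held 0.326 to 1.25% of them. The breaker libraries were not all alike. In the third WT breaker library the 33 genes other than heat stress factors deviated from the group mean by a median of -0.32 on the log2 scale, against 0.24 and 0.10 in the others, while the median over all genes tested was 0.01. The first cr breaker library scored -0.89 on the first principal component of all genes, which carried 68.7% of the variance, against 25.0 and 28.1 for the other cr breaker libraries. Counts are therefore given with and without these libraries. In bulk tissue, fewer cells of a type and less RNA per cell cannot be told apart.

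From mature green to breaker in WT, 28 of the 52 genes rose and 5 fell. Of all 19664 genes tested 48.3% were called, 23.4% rising and 24.9% falling. For 2 of these 33 calls, 1 in each direction, no library of the lower stage reached 10 counts, so the minimum itself favoured the call. The median change of the 52 was 0.55 on the log2 scale against 0.00 over all genes. In cr 16 rose and 4 fell over the same interval, where 28.7% of all genes were called, 15.2% rising and 13.5% falling, and the median change was 0.28 against 0.00. The genes that rose in both genotypes numbered 15, those that fell in both numbered 4, and none moved one way in WT and the other in cr. The stage change was smaller in cr than in WT (the genotype by stage interaction, the log2 change in cr minus that in WT) for 15 of the 52, all with a negative interaction, and a positive interaction was called for none. Of all genes 13.1% were called in that comparison, 4.62% lower and 8.53% higher. At an unadjusted p under 0.05, 3 of the 52 had a positive interaction, and no share over all genes was taken at that threshold. DESeq2 called 0 positive. The tool was edgeR's quasi-likelihood test over all genes with Benjamini-Hochberg adjustment, called at an adjusted p under 0.05, and every adjusted p below comes from it.

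Leaving out the third WT breaker library gave 27 rising and 5 falling genes in WT, and 20 lower and 0 higher genes in the interaction. Leaving out the first cr breaker library gave 15 rising and 4 falling genes in cr, and 14 lower and 1 higher genes in the interaction. Without both, an alternative chosen after the data were seen, the interaction gave 17 lower and 1 higher. Upper-quartile scaling moved the median of all genes in WT to -0.10 and the share of all stage calls in WT that rose from 48.4 to 37.5%, and scaling by library size alone moved them to -0.19 and 29.6%. Among the 52 genes the same share went from 84.8 to 81.2% under either scaling, and all interaction calls made under either were lower in cr.

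**Figure D1:**
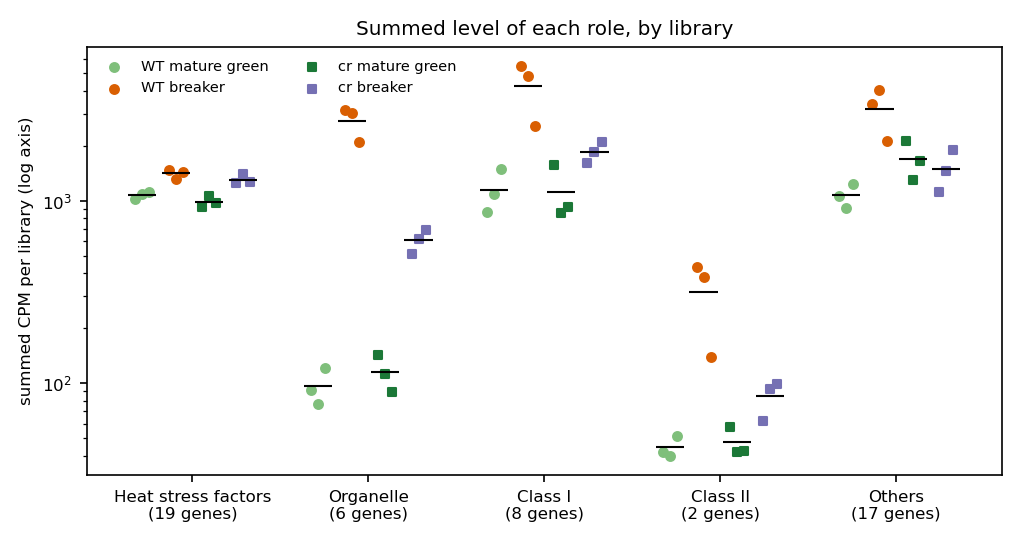
Summed level (TMM-scaled CPM, log axis) of the genes of each role in every library: circles are WT, squares are cr, and the bar is the mean of 3 libraries. The organelle sum lies between 2085 and 3122 CPM in WT breaker and between 511 and 691 in cr breaker, while the sum of the heat stress factors lies between 922 and 1478 in every library.

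Summed over the 33 genes that are not heat stress factors, WT libraries held 2069, 2119 and 2888 CPM (counts scaled to library size) at mature green and 6885, 12260 and 12370 at breaker. The cr libraries held 2308, 2708 and 3884 CPM at mature green and 3303, 4008 and 4801 at breaker. Every WT breaker library thus stood above every cr breaker library, and the cr stages overlapped. Heat stress factors added 1025 to 1110 CPM in WT mature green, 1318 to 1478 in WT breaker, 922 to 1062 in cr mature green and 1245 to 1399 in cr breaker. These sums separated the stages in each genotype, and the genotypes overlapped at both stages. A large part of them came from a single gene, Solyc06g053960. It held 351 to 416 CPM in WT mature green and 514 to 611 in WT breaker. In cr it held 217 to 297 CPM at mature green and 438 to 630 at breaker. Without that gene, the sums of the remaining factors still separated the stages in WT but overlapped between the stages in cr. The sums do not show how each factor moved.

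On the deposited FPKM scale, which divides by gene length and so allows genes to be set side by side, the class I gene Solyc06g076520 led in WT at both stages. Its level was 1322 ± 435 FPKM (SD, n = 3) at mature green and 3676 ± 1605 at breaker. The endoplasmic reticulum class IV gene Solyc11g020330 came next, at 861 ± 186 and 2576 ± 719 FPKM. These ranges overlapped at each stage, so their order is within the spread. The heat stress factor Solyc06g053960 came next after these in WT mature green at 455 ± 39.9 FPKM, level with the class I gene Solyc06g076560 at 434 ± 127. HSP21 was not among the first 10 at mature green in either genotype, and ranked 4 in WT breaker at 2115 ± 422 FPKM and 5 in cr breaker at 412 ± 76.3. In cr mature green, Solyc11g020330 stood first at 1648 ± 389 FPKM and Solyc06g076520 second at 1298 ± 514, with overlapping ranges.

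Of the 6 organelle genes, 5 rose in WT and 4 in cr, none fell, and the rise was smaller in cr for 4. Of all genes tested 23.4% rose in WT and 15.2% in cr, and 4.62% were lower in the interaction. HSP21 itself, Solyc03g082420 (chromosome 3, 46921671 to 46922757, minus strand, build SL4.0), codes for the chloroplast small heat shock protein of tomato. It was read at 31.3, 9.51 and 18.4 CPM in the WT mature green libraries and at 2345, 2321 and 1634 CPM at breaker. The cr libraries gave 35.9, 34.9 and 16.8 CPM at mature green and 351, 387 and 496 CPM at breaker. The genotypes overlapped at mature green, and at breaker every WT library was above every cr library. The rise was 6.73 ± 0.44 (SE) on the log2 scale in WT (adjusted p = 1.99e-07) and 3.81 ± 0.39 in cr (adjusted p = 2.62e-05). The interaction was -2.92 ± 0.51 (adjusted p = 0.00295). A feature on the opposite strand shares 129 bases with this gene and held 60 counts in all, against 131870 for HSP21.

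Solyc05g014280, whose best hit is the chloroplast small heat shock protein of pea, went from 1.70, 1.10 and 0.982 CPM to 201, 115 and 39.6 in WT. In cr it went from 1.08, 0.893 and 0.340 CPM to 4.61, 9.54 and 6.25. The stages did not overlap in either genotype, and the lowest WT breaker library stood above the highest cr breaker library. The rise was 6.54 ± 0.59 in WT and 3.13 ± 0.66 in cr, and cr was lower at breaker by a log2 difference of -4.13 ± 0.49 (adjusted p = 9.08e-05). That difference was -3.51 without the first WT breaker library, and the rise in WT was then 5.92. The interaction of -3.41 ± 1.02 (adjusted p = 0.0443) was close to the threshold and was lost on leaving out any of 8 libraries: all 3 of WT mature green (values -3.69, -3.32 and -3.26), the second of WT breaker (-3.43), the first and second of cr mature green (-3.09 and -3.29), and the first and the third of cr breaker (-3.19 and -3.34). It was -2.79 without the first WT breaker library.

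Solyc04g014480, with a peroxisomal Arabidopsis hit, was at 38.8, 48.0 and 78.5 CPM in WT mature green and 471, 507 and 351 in WT breaker. It was at 80.4, 54.9 and 52.7 CPM in cr mature green and 126, 179.8 and 149 in cr breaker. The rise was 3.01 ± 0.26 in WT against 1.28 ± 0.25 in cr, with an interaction of -1.73 ± 0.35 (adjusted p = 0.00664). Solyc12g042830 is described as class I and was placed here by a mitochondrial hit. It spans 240 bases, with no domain listed. It differed from the genes above in that no difference between the genotypes was called for its rise. Its change was 4.19 ± 0.46 in WT against 3.27 ± 0.48 in cr, with an interaction of -0.91 ± 0.67 (adjusted p = 0.417). The vesicle-associated hit Solyc08g078700 rose by 2.73 ± 0.35 in WT. It shares 5330 bases on the same strand with a feature that held 0 counts. Solyc08g078720, also with a mitochondrial hit, passed no test, at 11.8 to 18.3 CPM in all libraries.

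**Figure D2:**
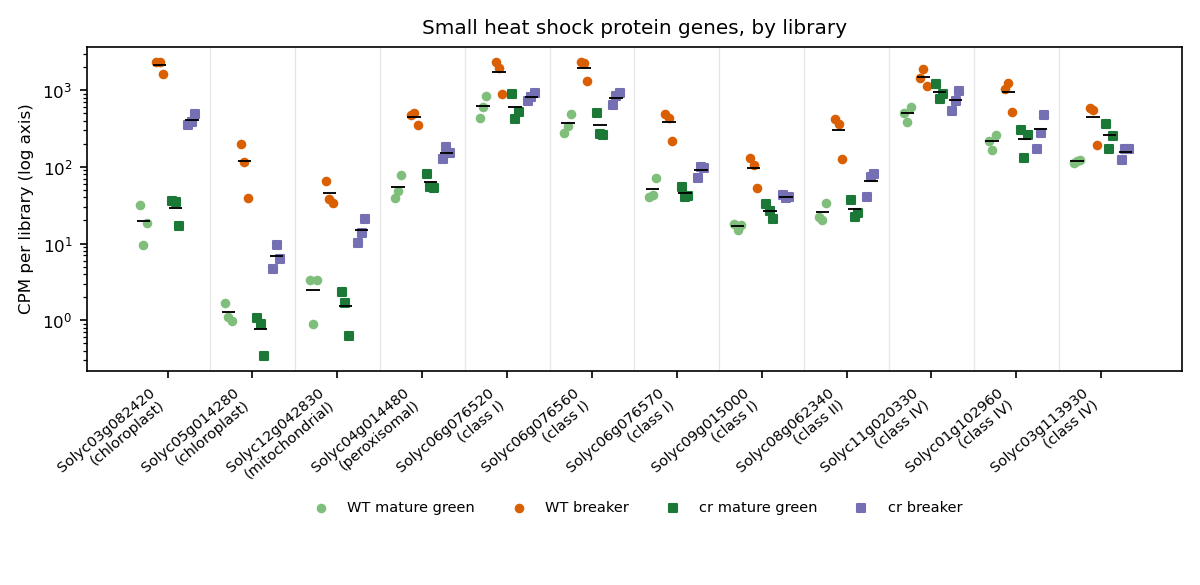
CPM (log axis) of 12 small heat shock protein genes in every library: circles are WT, squares are cr, lighter green and orange are the WT stages, darker green and violet the cr stages, and the bar is the mean of 3 libraries. Solyc09g015000 was added after its values were seen. Solyc12g042830 is marked mitochondrial by its protein hit but is described as class I. The mean of WT breaker (orange) is the highest for each of the 12, and the third library lies lowest in that group for each.

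Class I genes are the cytosolic small heat shock proteins that form large storage complexes with unfolding protein. Of the 8, 5 rose in WT, 2 rose in cr, none fell, and the rise was smaller in cr for 3. The shares over all genes were 23.4% rising in WT, 15.2% rising in cr and 4.62% lower in the interaction. The leading 3 lie on chromosome 6 between 45227381 and 45243522 (SL4.0). A further gene inside that stretch, Solyc06g076540, was below the minimum. These neighbours share a description, and the sources used here do not say how reads that match several places were handled, so their counts are uncertain to the extent that reads were split between them.

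Solyc06g076520 was at 429, 597 and 835 CPM in WT mature green and at 2340, 1927 and 895 at breaker. In cr it was at 881, 425 and 518 CPM at mature green and 726, 813 and 920.4 at breaker. The third WT breaker library fell inside the range of cr breaker. The WT rise was 1.47 ± 0.35 (adjusted p = 0.00339), and the change in cr was 0.43 ± 0.34 (adjusted p = 0.376). Their difference, -1.04 ± 0.48, missed the threshold (adjusted p = 0.181).

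Solyc06g076560 went from 279, 341 and 490.2 CPM to 2347, 2234 and 1309 in WT and from 510.2, 268 and 261 to 638, 827 and 908 in cr. It rose in both genotypes, by 2.41 ± 0.31 and 1.19 ± 0.30, with an interaction of -1.22 ± 0.41 (adjusted p = 0.0722). Solyc06g076570 went from 40.1, 43.5 and 71.2 CPM to 485, 438 and 215 in WT and from 54.4, 40.1 and 41.5 to 72.1, 100.2 and 96.9 in cr. It was the class I gene on this chromosome with a called interaction, at -1.89 ± 0.40 (adjusted p = 0.00829), after a rise of 2.88 ± 0.30 in WT and 0.98 ± 0.28 in cr. The cr rise was lost without the second (0.90) or the third (0.92) cr mature green library and without the second (0.90) or the third (0.92) cr breaker library.

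The other called class I genes lie together on chromosome 9, 11870 bases apart, and were chosen for mention after their values were seen. Solyc09g015000 was at 17.8, 15 and 17.3 CPM in WT mature green and 130, 106 and 53.7 at breaker, against 32.7, 26.6 and 20.7 and then 42.4, 39.7 and 40 in cr. It stood higher in every cr than in every WT library at mature green and lower at breaker, and its interaction was -1.92 ± 0.35 (adjusted p = 0.00421). Solyc09g015020 rose by 1.83 ± 0.23 in WT, with an interaction of -1.34 ± 0.32 (adjusted p = 0.0154). Solyc02g093600, Solyc03g113180 and a transcript without a Solyc identifier, which has a class I hit, were not called in any comparison. Solyc02g093600 was called higher in cr at mature green by DESeq2 (0.62, adjusted p = 0.0416) and without the third cr mature green library (0.78, edgeR adjusted p = 0.0444).

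Of the 2 class II genes, which code for cytosolic proteins, only Solyc08g062340 was called in any comparison. Its level went from 22.5, 20.6 and 34.0 CPM to 414, 366 and 126 in WT and from 37.3, 22.4 and 25.1 to 39.9, 74.8 and 81.5 in cr. The stages did not overlap in either genotype, and the lowest WT breaker library was above the highest cr breaker library. The rise was 3.56 ± 0.42 in WT and 1.21 ± 0.39 in cr, with an interaction of -2.35 ± 0.55 (adjusted p = 0.015). The cr rise was lost with the replicate block (1.23), without the second (1.07) or the third (1.13) cr mature green library, and without the second (1.10) or the third (1.02) cr breaker library. Solyc09g065370, described as class II but with no alpha-crystallin domain listed, was at 13.4 to 22.5 CPM in all libraries. Its stage difference in WT was called lower with upper-quartile scaling (-0.39), scaling by library size (-0.48) and the replicate block (-0.29).

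The 3 class IV genes, whose proteins belong to the endoplasmic reticulum, all rose in WT and none was called in cr. Solyc11g020330, named leer-sHSP in the annotation, was at 502, 388 and 602 CPM in WT mature green and 1428, 1914 and 1118 at breaker. In cr it was at 1203, 769.5 and 881 CPM at mature green and 533, 725 and 987 at breaker. Every cr mature green library was thus above every WT one, every cr breaker library was below every WT one, and the cr stages overlapped. The WT rise was 1.58 ± 0.26 (adjusted p = 0.000256), the change in cr was -0.35 ± 0.25 (adjusted p = 0.338), and the interaction was -1.93 ± 0.36 (adjusted p = 0.00472).

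Solyc03g113930 followed the same order. It read 114, 120 and 122 CPM in WT mature green, 578, 553 and 189.7 in WT breaker, 362, 171 and 249.7 in cr mature green and 124, 171 and 169 in cr breaker. Its interaction was -2.65 ± 0.49 (adjusted p = 0.00417), from 1.89 ± 0.35 in WT and -0.76 ± 0.34 in cr (adjusted p = 0.116). For Solyc01g102960 the WT rise was 2.12 ± 0.41, the change in cr was 0.42 ± 0.40 (adjusted p = 0.466), and the interaction of -1.70 ± 0.56 missed the threshold (adjusted p = 0.0641).

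Other genes of this kind were at low levels. The class III gene Solyc03g123540 rose by 1.85 ± 0.43 in WT, or by 1.24 without the first WT breaker library. The class V gene Solyc02g080410 went from 25, 29 and 15 counts in the WT mature green libraries to 1, 0 and 2 at breaker. That is a ratio of mature green to breaker of 20.4, with an exact 95% interval of 6.71 to 101.5 that covers counting error only. The gene reached 10 counts in the 6 mature green libraries and in no breaker library, so it entered through the stage where it is high, and the ratio is a description. Solyc07g055720, which has the domain but no class in its description, fell by 1.16 on the log2 scale in WT and by 1.58 in cr. Of the p23-like genes, which belong to the HSP90 cycle, Solyc12g056780 rose in WT by 1.18 ± 0.13 and in cr by 0.69 ± 0.13, and the other two passed no test. None of the 4 Restricted TEV Movement 2 genes was called with stage in either genotype.

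**Figure D3:**
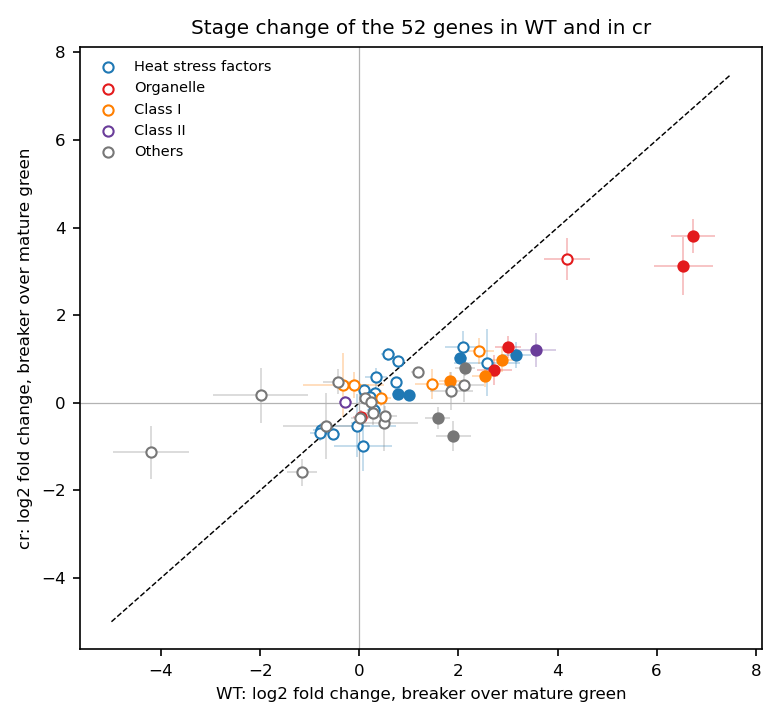
Log2 fold change from mature green to breaker in WT (x axis) and in cr (y axis) for the 52 genes, with 1 SE on each axis and colours for the roles. Filled points are the 15 genes with a called interaction, and all 15 lie below the dashed line of equal change.

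Heat stress factors moved in both directions. Of the 19, 11 rose and 3 fell in WT, 7 rose and 3 fell in cr, and the stage change was smaller in cr for 4. Of all genes tested 23.4% rose and 24.9% fell in WT, and 15.2% rose and 13.5% fell in cr. In the interaction 4.62% of all genes were lower. The median change was 0.34 in WT and 0.21 in cr, against 0.00 over all genes in both.

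In WT, the heat stress factor with the largest rise among those above 10 CPM in every library was Solyc02g090820, described as HSF B-1 with its hit to HSF24 of Solanum peruvianum, a class B factor. It was at 24.7, 21.2 and 23.2 CPM in WT mature green and 114, 90 and 79 at breaker, and in cr at 19.6, 21.3 and 22.4 and then 42.6, 39.2 and 46.3. The genotypes overlapped at mature green and were apart at breaker. The rise was 2.03 ± 0.13 in WT (adjusted p = 1.70e-07) and 1.02 ± 0.13 in cr (adjusted p = 0.000118), and the interaction was -1.02 ± 0.18 (adjusted p = 0.0034).

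Solyc09g065660, with a hit to the class A factor A-2b of rice, was scarce, at 0.368 to 0.619 CPM in WT mature green and 4.48 to 4.96 in WT breaker. It reached 1.01, 1.55 and 1.31 CPM in cr breaker, from 0.538 to 0.679 at mature green. The rise was 3.17 ± 0.30 in WT against 1.08 ± 0.30 in cr, with an interaction of -2.08 ± 0.42 (adjusted p = 0.00725). The cr rise was lost without the first cr mature green library (1.01) or the second cr breaker library (0.93). Solyc03g006000, with a hit to factor A-4a of Arabidopsis, was called in WT and not in cr. Its WT values were 23.3, 21.2 and 20.5 CPM and then 47.5, 44.3 and 38.8, and its cr values were 20.9, 19.5 and 22.2 and then 22.3, 26.0 and 23.1. The interaction was -0.82 ± 0.15 (adjusted p = 0.00364).

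Class A-1 factors are known in tomato as the master regulators that start the heat response. The tomato HSF8 gene Solyc08g005170 stayed between 27.9 and 38.9 CPM in all 12 libraries, with a call only in cr, at 0.29 ± 0.09 (adjusted p = 0.0234). That call was lost under upper-quartile scaling (0.24), scaling by library size (0.20), without the first (0.26) or second (0.30) cr mature green library, and without the first (0.23) or the third (0.29) cr breaker library. Solyc03g097120, described as A-1, rose by 0.75 ± 0.10 in WT and 0.47 ± 0.10 in cr. Solyc06g072750, also described as A-1, went from 11.1, 10.6 and 10.3 CPM to 18.9, 18.4 and 17.9 in WT and from 12.3, 13.4 and 12.9 to 15.2, 12.5 and 16.6 in cr. Its interaction of -0.59 ± 0.16 (adjusted p = 0.0307) was lost in 10 of 20 alternatives, with values of -0.59 to -0.49 in them. Among these were leaving out the second or the third WT mature green, the first or second WT breaker, the second or the third cr mature green, or the second cr breaker library. Solyc08g076590, with a hit to HSF8 of Solanum peruvianum, stayed at or below 2.15 CPM and passed no test.

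HSF30 of Solanum peruvianum is factor A2, which in tomato builds up during lasting heat. Its hits were Solyc08g062960, at 14.5 to 35.8 CPM with no call by edgeR (DESeq2 called a rise of 0.57 in cr, adjusted p = 0.0407), and Solyc07g040680. The latter went from 53.6, 59.6 and 59.2 CPM to 34.2, 31 and 35.7 in WT and from 63.2, 84.9 and 74.5 to 63.4, 42.9 and 37.1 in cr. It fell by 0.77 on the log2 scale in WT and by 0.63 in cr. The fall in cr was lost without the second cr mature green (-0.53), the second cr breaker (-0.56) or the third cr breaker library (-0.49). Solyc09g009100, described as A3, and Solyc12g098520, described as A-5, also fell in both genotypes, by 0.54 and 0.79 in WT and by 0.71 and 0.68 in cr. The WT fall of Solyc09g009100 was lost without the second WT mature green (-0.37) or second WT breaker library (-0.45), and the cr fall of Solyc12g098520 without the second (-0.67) or the third (-0.60) cr mature green or the second (-0.63) or the third (-0.50) cr breaker library.

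The most abundant factor, Solyc06g053960, has a hit to A-6b of Arabidopsis. It was read at 351, 371 and 416 CPM in WT mature green, 574, 514 and 611 in WT breaker, 237, 297 and 217 in cr mature green and 438, 630.1 and 554 in cr breaker. It rose in both genotypes, by 0.58 ± 0.15 in WT and 1.11 ± 0.15 in cr, and its interaction, 0.53 ± 0.21, was positive but missed the threshold (adjusted p = 0.113). Solyc09g082670, with the same hit, had 2, 3 and 3 counts in WT mature green and 14, 11 and 19 in WT breaker, a log2 difference of 2.58 ± 0.67. No mature green library reached 10 counts, so it passed the minimum through breaker, where it is high, and its call gives no support to a rise. Solyc12g007070, with a hit to the class C factor C-1, rose by 0.77 ± 0.11 in WT and 0.96 ± 0.11 in cr. Solyc08g080540, described as B-2b, rose by 2.09 ± 0.36 and 1.28 ± 0.35 at levels under 3 CPM, and the cr rise was lost without the second cr mature green (1.19) or second cr breaker library (1.11).

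Small rises called in WT alone were 0.33 ± 0.10 for the B-2a hit Solyc03g026020 and 0.22 ± 0.08 for the A-8 hit Solyc09g059520. Both were lost under upper-quartile scaling, at 0.22 and 0.11, and under scaling by library size, at 0.13 and 0.02. The first was also lost without the first WT mature green (0.25) or first WT breaker library (0.29), and the second without the first (0.21) or second (0.22) WT mature green, the second (0.22) or the third (0.21) WT breaker or the third cr breaker library (0.20). Solyc02g072000 and Solyc07g055710, with hits to A-4a and A-4c, passed no test.

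**Figure D4:**
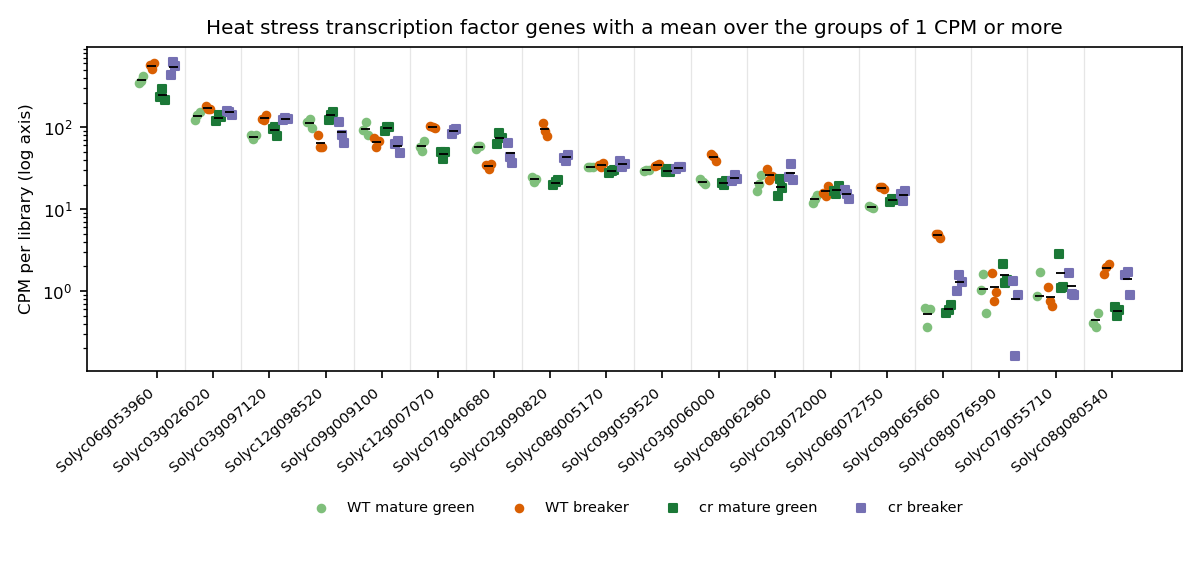
CPM (log axis) of the 18 heat stress factor genes with a mean of 1 CPM or more over the groups, in every library, ordered by that mean: circles are WT, squares are cr, and the bar is the mean of 3 libraries. A library with 0 counts of Solyc07g055710 (WT mature green) cannot be drawn on a log axis. Solyc02g090820, Solyc03g006000 and Solyc09g065660 stand higher in WT breaker than in the other 3 groups.

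At breaker 19 of the 52 genes were lower in cr than in WT and 2 were higher, where 25.0% of all genes were called, 11% lower and 14.0% higher. The median difference was -0.27 against 0.00 over all genes. Without the first cr breaker library 15 were lower and 0 higher, and without the third WT breaker library 20 were lower and 0 higher. By role the lower calls were 5 of 6 organelle genes, 4 of 8 class I genes, 1 of 2 class II genes, 3 of 19 heat stress factors and 6 of the 17 others, which included all 3 class IV genes.

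The differences at breaker share the WT breaker libraries with the stage change in WT, so both lists draw on the same values. Among the genes lower in cr, the largest were -4.13 for Solyc05g014280, -2.35 ± 0.36 for HSP21 Solyc03g082420 (adjusted p = 0.000507), -2.21 ± 0.39 for Solyc08g062340, -2.08 ± 0.29 for Solyc06g076570 and -1.89 ± 0.27 for the factor Solyc09g065660 (adjusted p = 0.000315). Solyc02g090820 was lower by a log2 difference of -1.14 ± 0.13 and Solyc03g006000 of -0.87 ± 0.10. For Solyc06g076520 the difference of -1.07 ± 0.34 (adjusted p = 0.0366) was lost in 7 of 21 alternatives, with values of -1.14 to -0.78. The libraries whose loss ended that call were the first and second of WT breaker and all 3 of cr breaker. The call of Solyc11g020330, -0.99 ± 0.26, was lost without the second WT breaker (-0.77) or the first cr breaker library (-0.80), and that of Solyc12g042830, -1.61 ± 0.39, without the first WT breaker library (-1.27).

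The 2 genes called higher in cr at breaker were the Restricted TEV Movement 2 gene Solyc11g071560 and the factor Solyc07g040680. The first reached 10 counts only in cr libraries, so its call is conditioned on the minimum and gives no support to a difference. It had 3, 1 and 0 counts in the WT libraries against 29, 6 and 6 in cr, a difference of 3.08 ± 0.87 that was lost without the second (2.91) or the third (2.54) WT breaker or the first cr breaker library (1.97) and was 4.32 without the first WT breaker library. The second differed by 0.51 ± 0.17 (adjusted p = 0.0429), which was 0.25 without the first cr breaker library and was lost in 11 of 21 alternatives, among them the loss of any WT library or of the third cr mature green library.

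At mature green 1 of the 52 genes was called lower in cr and none higher, where 4.34% of all genes were called, 2.62% lower and 1.72% higher. At an unadjusted p under 0.05, 10 of the 52 were higher, and no share over all genes was taken at that threshold. DESeq2 called 4 of the 52 higher, and 592 of all genes. The gene called lower was the factor Solyc06g053960, at -0.60 ± 0.15 (adjusted p = 0.0397), and every cr library was below every WT library. The call was lost with the replicate block and without the first (-0.65), second (-0.62) or the third (-0.53) WT mature green, first WT breaker (-0.60), first (-0.56) or the third (-0.51) cr mature green, or the third cr breaker library (-0.59). Among the chaperones, Solyc03g113930 was at 1.14 ± 0.34 (adjusted p = 0.0858), Solyc11g020330 at 0.94 ± 0.26 (adjusted p = 0.0588), Solyc09g015020 at 0.82 ± 0.23 (adjusted p = 0.0667), Solyc03g007890 at 0.71 ± 0.20 (adjusted p = 0.0687) and Solyc09g015000 at 0.68 ± 0.26 (adjusted p = 0.166). These 5, named after their values were seen, were the additional genes called, all higher in cr, when the third WT breaker library was left out, with adjusted p-values of 0.014 to 0.0492. That library belongs to neither group compared, and the cause of the added calls was not tested.

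The refolding partners of these chaperones were read from lists made by description. All 5 tested HSP100 genes, ATP-driven disaggregases and their relatives, rose in WT, 4 rose in cr, and the rise was smaller in cr for 4. Of 24 tested HSP70 genes, 16 rose and 2 fell in WT, 5 rose and 2 fell in cr, and 10 had a lower and 1 a higher stage change in cr. Of 12 tested HSP90 genes, 6 rose in WT and 1 in cr, and 3 were lower in the interaction. The 103 tested DnaJ genes are of the large family of HSP70 co-chaperones. They gave 32 rises and 19 falls in WT, and 26 rises and 8 falls in cr. In the interaction 6 were higher and 4 lower, with a median of 0.02. Over all genes 23.4% rose and 24.9% fell in WT, and 15.2% rose and 13.5% fell in cr. In the interaction 8.53% of all genes were higher and 4.62% lower. The DnaJ calls in the interaction lay near these shares. With stage, in both genotypes, a larger share of the DnaJ genes rose and a smaller share fell than over all genes. No family was tested against the shares.

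The stromal HSP70 gene Solyc11g020040 went from 81.9, 46.1 and 85.0 CPM to 782, 573 and 389.9 in WT and from 104, 124 and 82.5 to 175, 162 and 161 in cr, with an interaction of -2.35 ± 0.36 (adjusted p = 0.00134). The chloroplast HSP90 gene Solyc05g010670 rose by 1.59 ± 0.11 in WT and changed by 0.11 ± 0.11 in cr (adjusted p = 0.475). The ClpB1 gene Solyc03g115230, the cytosolic disaggregase, rose by 3.26 ± 0.33 in WT and 1.94 ± 0.31 in cr, and its interaction of -1.31 ± 0.43 missed the threshold (adjusted p = 0.0645). The J-domain gene Solyc05g011960 rose by 3.03 ± 0.24 and 1.30 ± 0.23, and the FKBP65 hit Solyc06g083190, a peptidyl-prolyl isomerase, by 1.43 ± 0.10 and 0.32 ± 0.10.

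Smaller families went without a common direction. Of 12 tested BAG genes 3 rose and 3 fell in WT, and Solyc06g035720 fell by 2.40 in WT and 2.07 in cr. Of 5 bridging factor genes 1 rose and 1 fell in WT, and Solyc07g062400 fell by 0.38 in WT with an interaction of 0.49 ± 0.14. Solyc07g062400 is described as a bridging factor, but its protein hit is Tubby-like F-box protein 7. The 5 FKBP genes gave 2 rises and 3 falls in WT, and the 2 tested galactinol synthase genes gave 1 rise and 1 fall. Neither of the 2 heat shock factor binding protein genes was called in WT, and 1 rose in cr. Over all partner families together, with HSP70, HSP90, HSP100 and DnaJ included, 66 of 169 tested genes rose and 29 fell in WT. Of the 169, 25 had a lower and 10 a higher stage change in cr. The shares over all genes were 23.4% rising and 24.9% falling in WT, and 4.62% lower and 8.53% higher in the interaction. The BAG counts in WT lay near these shares.

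Ripening markers were read to place the stages. All 5 tested genes (PG2A, a polygalacturonase, PSY1, phytoene synthase, E8, EXP1, an expansin, and ACS2, an ethylene synthesis gene) rose in both genotypes. Their summed level ran from 1802 to 3450 CPM in WT mature green, 30390 to 31940 in WT breaker, 835 to 1257 in cr mature green and 7535 to 15370 in cr breaker. At each stage 4 of the 5 were lower in cr, where 2.62% of all genes were lower at mature green and 11% at breaker. The gene not called was PSY1 at mature green (-0.58 ± 0.27) and ACS2 at breaker (-1.61 ± 0.64). In the interaction EXP1 was called higher, at 1.13 ± 0.32 (adjusted p = 0.0345). The others were not called, at -0.46 ± 1.01 for PG2A, -0.40 ± 0.38 for PSY1, 1.19 ± 0.43 for E8 and 2.48 ± 1.29 for ACS2. The markers were not tested against the heat genes.

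Genes on lists for seed, green tissue, and xylem and lignin also moved with the groups. The 212 seed genes summed to 6211 to 9465 CPM in WT mature green, 2992 to 3284 in WT breaker, 6757 to 8162 in cr mature green and 4171 to 5659 in cr breaker, with 92 to 107 of them at 0 in a group. The 40 chlorophyll-binding genes of green tissue summed to 1827 to 2128, 547 to 677, 2005 to 2347 and 906 to 1481 CPM in the same order. The 89 xylem and lignin genes summed to 749 to 775, 829 to 950.4, 626 to 682 and 644 to 757 CPM. That sum does not follow most of its members: of 35 tested, 5 were called higher and 18 lower from mature green to breaker in WT, and at breaker 14 were higher and 4 lower in cr. The seed sum also does not stand for its members. Of 65 tested, 15 were called higher and 21 lower from mature green to breaker in WT. At breaker 10 were higher and 12 lower in cr, where the sum was higher. Over all genes 23.4% rose and 24.9% fell in WT, and at breaker 14.0% were higher and 11% lower in cr. The seed genes called higher in these 2 comparisons lay near those shares. The part of these 3 lists in the changes of the heat genes was not tested.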

How the data were processed

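RNA from tomato pericarp was sequenced in 12 libraries. The authors deposited read counts per gene, not normalized, and FPKM values, which the files show to be library-scaled counts per kilobase times a single factor per library. Per the submitters' processing notes the tools were edgeR 3.22.5, DESeq2 1.20.0, HISAT2 2.0.5, fastp 0.23.1 and featureCounts 1.5.0-p3, with no roles stated. Per the file headers, coordinates are those of the annotation, whose build is SL4.0. Strandedness of the counting, and what became of multi-mapping reads, is not given in the sources.

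Counts were filtered with filterByExpr (min.count 10, min.total.count 15) over all features, leaving 19664 genes, and scaled by TMM. edgeR 4.0.16 in R 4.3.3 (glmQLFit, glmQLFTest) was fitted to all 12 libraries with 4 group coefficients, and p-values were Benjamini-Hochberg adjusted over all genes within each of 5 comparisons. An SE is the log2 fold change over the root of F, and CPM is TMM-scaled. The script was checked on simulated counts. Total counts were 17703054 to 19426192.

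The genes and lists were chosen with earlier results of these data known. Named genes were every heat stress factor past the minimum, the 8 others of highest mean FPKM, the 5 called genes of largest change in each direction per comparison, and the largest called change in WT per family of partner genes. Genes named beyond this, to complete a role or after their values were seen, were not chosen by the rule. Partner families were matched on descriptions without the domain field, since HSP90-like ATPase domains drew in unrelated genes. Names come from the deposited annotation. RIN was not analysed here. Replicate numbers were checked for pairing. Alternatives were other scalings and filters, DESeq2 1.42.0, a replicate block, a fit of the groups compared alone, and leaving out libraries.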

Additional observations from a re-analysis of the deposited data

Results flagged for a closer look

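The stage change differed between cr and WT, by the interaction term of the fit across all genes, for 15 of the 52 genes. All 15 values, the log2 change in cr minus that in WT, were negative. Among organelle genes they were -3.41 for Solyc05g014280, -2.92 for HSP21 Solyc03g082420, -1.97 for Solyc08g078700 (a vesicle-associated hit) and -1.73 for Solyc04g014480. Among class IV genes they were -2.65 for Solyc03g113930 and -1.93 for Solyc11g020330, and for the class II gene Solyc08g062340 it was -2.35. Class I gave -1.92 for Solyc09g015000, -1.89 for Solyc06g076570 and -1.34 for Solyc09g015020. Heat stress factors gave -2.08 for Solyc09g065660, -1.02 for Solyc02g090820, -0.82 for Solyc03g006000 and -0.59 for Solyc06g072750. Solyc03g007890, whose hit belongs to the HSP90 family, gave -1.33. The call of Solyc08g078700 was lost without the first cr mature green library, at -1.69.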

How the results depend on the processing

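Of 90 calls over the 5 comparisons, 69 held under every alternative run, 21 were lost under at least 1, and no called value changed sign. Of 170 comparisons of a gene without a call, 32 gained one under at least 1 alternative. At mature green the count of the 52 genes called was 1, and it became 2 without normalization factors, 2 with no low-count filter, 5 with DESeq2, 5 with only the groups compared, 0 with the replicate block, and 0 to 6 on leaving out 1 library (6 without the third WT breaker library). Over all genes that comparison called 853, 1452 with DESeq2, and 245 to 1200 on leaving out 1 library. Leaving out the third WT breaker and first cr breaker libraries together, chosen after seeing the data, gave 6 and 1459. The count of all genes called in cr was 5645, and 3747 to 6028 on leaving out 1 library. Counts of the 52 on leaving out 1 library were 15 to 22 at breaker, 31 to 34 in WT, 15 to 22 in cr and 13 to 20 in the interaction. The cause of these shifts was not tested. At breaker, Solyc03g007890 (-0.61) lost its call in 7 alternatives and Solyc03g123540 (-1.21, -0.59 without the first WT breaker library) in 15. Same-numbered replicates did not deviate together: over 18 pairs r was -0.22 to 0.09. No pairing by number was thus seen, but a shared plant, day or batch is not excluded by it. The replicate block gave 18 calls of the 52 at breaker, 34 in WT, 21 in cr and 14 in the interaction. With 3 libraries a group, genes under about 1 CPM have wide errors.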
